A study of Mus musculus with 16 samples.

Results

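A set of 9 genes, out of 21220 in the authors' normalized table, was followed through every library of a study of cultured mouse organs of Corti: Eaf2, Nrip3, Reep6, Tango2 and Mdm1, which were higher with the deacetylase inhibitor FK228, and Plpp5, Ubxn8, Csad and Kdelc2, which were lower. They were chosen by their normalized counts with FK228 and with solvent, as genes whose responses were large and varied little between libraries, mostly in both genotypes. Their FK228 values are therefore given as a description, without a test. What the choice did not use directly, the difference between genotypes, was tested for each gene. That test uses the same libraries, and the choice favoured little spread between them, which can lower its p-values. All 9 genes passed the filter on low counts that left 17125 genes for testing.

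The cultured tissue, the hearing organ of the inner ear with its hair cells and supporting cells, came from C57BL/6 mice at postnatal day 0 that were wild type or Rest(+/deltaExon4), that is, heterozygous for loss of exon 4 of Rest. The cultures of both genotypes were kept for 3.5 days and exposed to 2 nM FK228, or to 0.1% DMSO as the solvent, between days 1 and 1.5 and again between days 3 and 3.5. The 4 groups, wild type with solvent, wild type with FK228, heterozygous with solvent and heterozygous with FK228, held 4 libraries each, 16 in all. A library held RNA pooled from 6 to 8 whole cultures. Heterozygotes keep a Rest allele with exon 4 in every cell, and no group lacked Rest RNA. What the loss of exon 4 does to the activity of REST was not measured. Nothing in the labels tells whether pools of 1 group are of different litters. The p-values therefore cover only how these pools differ from each other, which may be technical. In such whole cultures fewer cells of a type and less RNA per cell cannot be told apart.

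FK228, also called romidepsin, is a cyclic peptide that inhibits class I histone deacetylases, enzymes that remove acetyl groups from histone tails. REST is a zinc finger repressor that holds neuronal genes down, in part by recruiting these same deacetylases. The 9 genes share no pathway: they encode a factor of transcription elongation (Eaf2), a protein named for its binding to nuclear receptors (Nrip3), membrane and transport proteins of the endoplasmic reticulum (ER) and Golgi (Reep6, Tango2, Ubxn8), a centriole protein (Mdm1), a lipid phosphatase (Plpp5), an enzyme of taurine synthesis (Csad) and a glucosyltransferase of Notch repeats (Kdelc2).

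Promoter sequences of RefSeq (GRCm38.p6, 250 bases before to 50 after a start) matched 4 of the 9 genes: Eaf2, Tango2 and Mdm1, which were higher with FK228, and Csad, which was lower. Nrip3, Reep6, Plpp5, Ubxn8 and Kdelc2 are named only. Shown are the exon-free stretches nearest to the first start of each matched gene and outside its annotated body, because they let genes that moved in opposite directions be read side by side. Capitals mark the CCAAT box on either strand (read as ATTGG on the other strand) and the GC box GGGCGG. The Eaf2 stretch runs from position -250 to -178 (chr16:36875004-36875076, minus strand), in the gap between Eaf2 and Golgb1. The Tango2 stretch runs from -83 to -6 (chr16:18348104-18348181, minus strand) and fills the gap between Tango2 and Arvcf. The Mdm1 stretch runs from -150 to -1 (chr10:118141637-118141786, plus strand). The Csad stretch runs from -176 to -35 (chr15:102205087-102205228, minus strand), inside the body of Zfp740.
Eaf2: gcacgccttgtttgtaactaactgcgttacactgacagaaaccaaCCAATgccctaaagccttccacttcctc
Tango2: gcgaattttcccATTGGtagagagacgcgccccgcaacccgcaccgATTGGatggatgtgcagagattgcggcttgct
Mdm1: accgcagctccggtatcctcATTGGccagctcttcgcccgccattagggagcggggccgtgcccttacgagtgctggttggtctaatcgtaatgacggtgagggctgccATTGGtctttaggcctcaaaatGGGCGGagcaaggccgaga
Csad: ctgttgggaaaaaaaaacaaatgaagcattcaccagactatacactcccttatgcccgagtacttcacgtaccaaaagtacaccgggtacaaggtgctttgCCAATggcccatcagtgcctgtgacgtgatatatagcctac

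The motifs searched on both strands of the 300-base windows were the CCAAT box, the GC box GGGCGG, the TATA box TATAAA, the E-box CACGTG, the cyclic AMP response element TGACGTCA and the AP-1 site TGAGTCA. No motif of these contains another. The first window of all 4 matched genes held CCAAT, which 37.4% of all 32851 RefSeq promoters held. GGGCGG lay in the first windows of Tango2 and Mdm1 and in 35.7% of all promoters. The other 4 motifs were in none of these 4 windows; their shares over all promoters were 13.6% for the TATA box, 7.15% for the E-box, 1.79% for the cyclic AMP response element and 5.202% for the AP-1 site. The base composition of the windows differed as well, with 51.0% G and C for Eaf2, 64.3% for Tango2, 68.0% for Mdm1 and 47.3% for Csad against a median of 52.7%. CCAAT was thus present in the first windows of genes that were higher and of the gene that was lower. Eaf2 and Tango2 have 3 starts each and Csad has 2, and the windows of other starts differed. Window 2 of Eaf2 held GGGCGG and 70.7% G and C, window 3 held TATAAA, and both held CCAAT. Window 2 of Csad held GGGCGG and no CCAAT. Windows 2 and 3 of Tango2 held both CCAAT and GGGCGG.

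Gene counts ran from 12361027 to 23611571 per library and were lowest in the heterozygous FK228 libraries (12361027 to 14153838). Rest itself, counted over the whole gene and not its exon 4, held 1183 to 1360 normalized counts with solvent and 1117 to 1266 with FK228 in wild type, and 1238 to 1488 and 1202 to 1380 in heterozygous cultures. Its genotype difference passed the edgeR test neither with solvent (log2 0.12 ± 0.08, adjusted p = 0.654) nor with FK228 (0.13 ± 0.08, adjusted p = 0.525). FK228 called 49.0% of tested genes in wild type and 48.4% in heterozygous cultures by edgeR's quasi-likelihood test (adjusted p under 0.05), 4061 higher and 4333 lower and 4068 higher and 4229 lower. Scaling to the ERCC spike-in RNA instead of to the bulk of genes shifted the median log2 change of all genes to -0.16 in wild type, with 2008 higher and 4516 lower, and to -0.72 in heterozygous cultures, with 807 higher and 10717 lower. Every change below is relative to the bulk of genes. Markers of several cell types moved with FK228. All 10 macrophage markers fell in both genotypes. Their sum in CPM (reads scaled to library size) was 418 to 480 with solvent and 51.1 to 64.5 with FK228 in wild type. In heterozygous cultures it was 285 to 416 and 33.3 to 43.6. Of 9 mesenchyme markers 7 fell and 1 rose in each genotype, and 4 and 5 of 6 Schwann cell markers fell. Of 5 tested melanocyte markers, 0 rose and 3 fell in wild type, and 1 rose and 0 fell in heterozygous cultures. With spike-in scaling the melanocyte counts were 0 and 3, and 0 and 1. Of 8 neuron markers, 3 rose and 2 fell in wild type, where the sums overlapped (247 to 418 CPM with solvent and 309 to 604 with FK228). In heterozygous cultures 5 rose and 0 fell (96.7 to 158 and 179.8 to 291). With spike-in scaling 3 rose and 2 fell in wild type, and 3 rose and 1 fell in heterozygous cultures. Hair cell markers (8 of 8 tested, sums of 260 to 519 CPM over all libraries) and supporting cell markers (8 of 8, sums of 678 to 1216 CPM) were present in every library. Of the hair cell markers 1 rose and 3 fell in wild type, and 1 rose and 1 fell in heterozygous cultures. Their sum was nevertheless higher with FK228: 358 to 443 CPM with solvent and 479 to 519 with FK228 in wild type. In heterozygous cultures the sum was 260 to 361 CPM with solvent and 381 to 446 with FK228. Of the supporting cell markers 0 rose and 4 fell in each genotype, and of 6 endothelium markers 0 rose and 3 fell. With spike-in scaling the hair cell counts were 1 and 4, and 0 and 6. Those of supporting cells were 0 and 4, and 0 and 7. No marker of any list was at 0 in all libraries, and the part of these shifts in the values of the 9 genes was not tested.

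**Figure D1:**
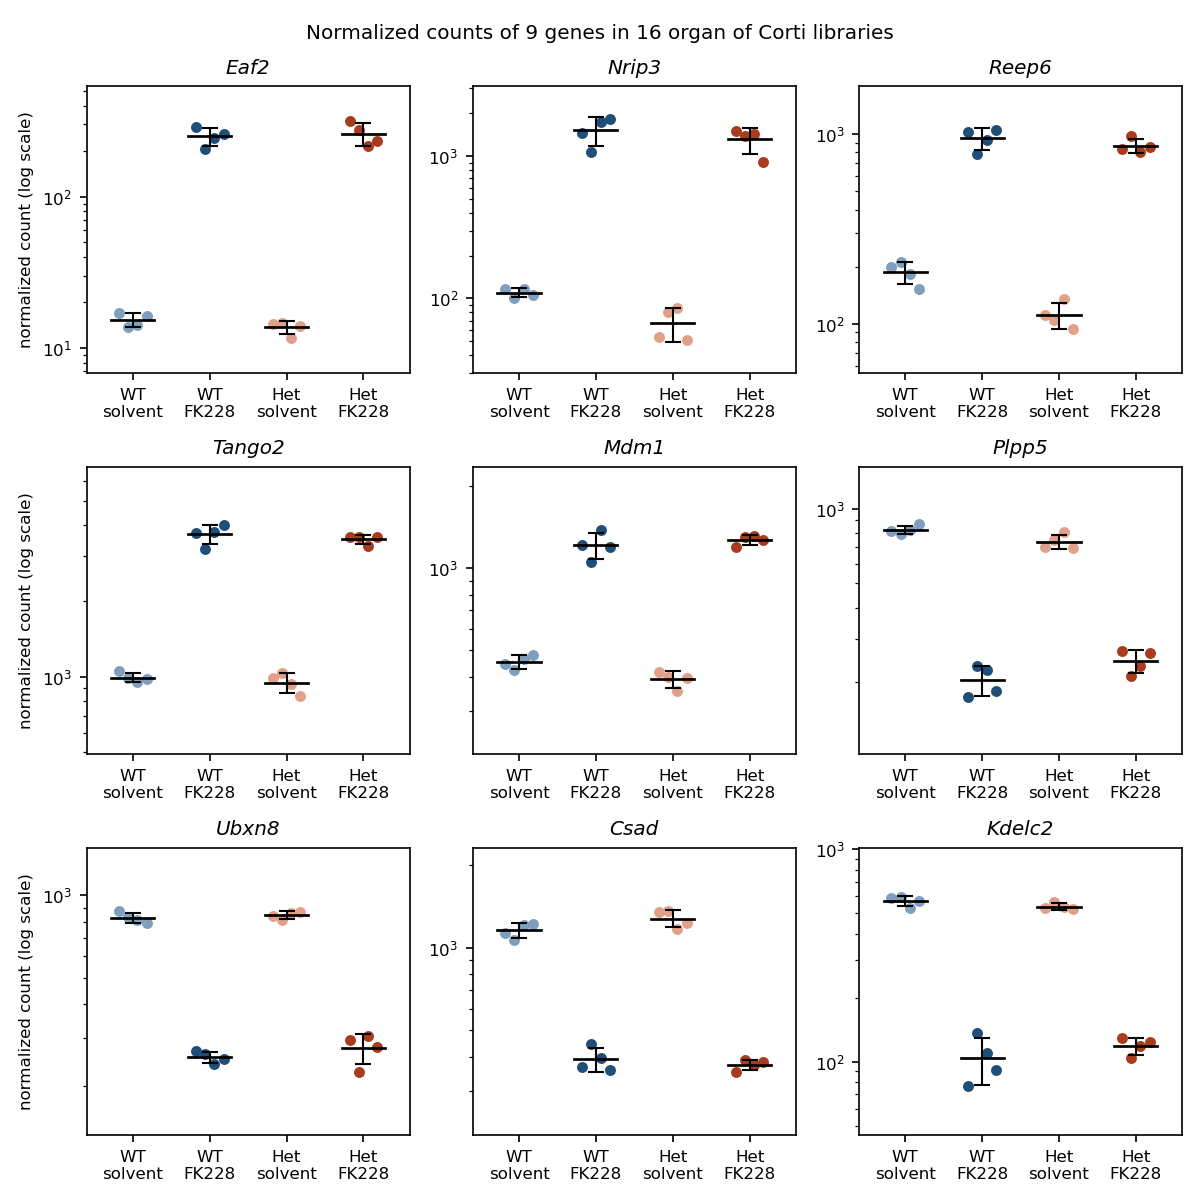
Normalized counts (log axis) of the 9 genes in each of the 16 libraries, by group (WT, wild type; Het, Rest heterozygous); points are libraries, bars the mean and SD of 4. In every panel the solvent and FK228 groups of a genotype are apart, and only Nrip3, Reep6 and Mdm1 show solvent groups of the genotypes that do not overlap.

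Eaf2 (ENSMUSG00000022838; chromosome 16, 36792884 to 36875003, minus strand, GRCm38) encodes a partner of the ELL elongation factors, which keep RNA polymerase II moving. Its level with solvent was the lowest of the 9 genes. In wild type, libraries 1 to 4 with solvent had 17.1, 13.9, 14.1 and 16.3 normalized counts (reads divided by a size factor of the library), and libraries 1, 2, 4 and 7 with FK228 had 289, 205, 246 and 259.5. In heterozygous cultures, libraries 1, 2, 4 and 5 with solvent had 14.4, 14.6, 11.6 and 14.1, and libraries 2 to 5 with FK228 had 317, 277, 217 and 233. Every treated library was far above every solvent library: the lowest was 12.0 times the highest solvent library in wild type and 14.9 times in heterozygous cultures. The log2 change was 4.00 ± 0.18 (SE; 15.98-fold) in wild type and 4.24 ± 0.19 (18.9-fold) in heterozygous cultures. The solvent values rest on 11 to 24 reads per library, the fewest of the 9 genes. Eaf2 overlaps Iqcb1 on the opposite strand over 44337 bases. The counting was not strand-specific, so where both genes have exons their reads cannot be told apart.

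The elongation genes listed beside Eaf2 moved less than Eaf2 did. Among 16 tested genes, 6 rose and 1 fell in wild type, where 23.7% of all tested genes rose and 25.3% fell, and 10 rose and 1 fell in heterozygous cultures, where 23.8% rose and 24.7% fell. With spike-in scaling these counts became 2 and 1 in wild type and 0 and 10 in heterozygous cultures, so the direction of this list in heterozygous cultures depended on the scaling. The median log2 change was 0.21 in wild type and 0.32 in heterozygous cultures, against -0.0058 and 0.00082 for all genes. Ell rose 1.43-fold in wild type (edgeR adjusted p = 5.98e-05). Cdk9, the kinase of the elongation factor P-TEFb, rose 1.53-fold (adjusted p = 0.00120) in wild type and 1.59-fold (adjusted p = 0.000685) in heterozygous cultures. Mllt3, a subunit of the super elongation complex, rose 1.39-fold and 1.601-fold and Supt5, of the elongation factor DSIF, 1.35-fold and 1.28-fold. In heterozygous cultures Ell rose 1.19-fold. With spike-in scaling Cdk9 was the only gene of these 4 still called higher in wild type, and in heterozygous cultures Ell and Supt5 were called lower (log2 -0.46 and -0.37) while Cdk9 and Mllt3 were not called. The largest rise of the list was that of Ell3, an ELL family member at low level that is named after its values were seen. It went from 3.75 ± 1.48 (SD, n = 4) to 17.4 ± 6.95 normalized counts in wild type (4.48-fold; edgeR adjusted p = 0.00165) and from 7.16 ± 4.73 to 19.1 ± 4.47 in heterozygous cultures (2.61-fold; adjusted p = 0.0240), where it was not called with spike-in scaling. Eaf1, the closest relative of Eaf2, passed the test in neither genotype: it held 244 ± 27.1 (SD, n = 4) normalized counts with solvent and 247 ± 26.7 with FK228 in wild type, and 246 ± 35.9 and 206 ± 12.2 in heterozygous cultures, where spike-in scaling called it lower (log2 -0.96).

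Nrip3 (ENSMUSG00000034825; chromosome 7, 109758055 to 109782025, minus strand) had the other very large rise. It held 117, 101, 116 and 106 normalized counts in the wild-type solvent libraries and 1461, 1068, 1748 and 1826 in the wild-type FK228 libraries, in the library order given for Eaf2. It held 53.2, 80.03, 85.6 and 50.9 in the heterozygous solvent libraries and 1499, 1389.6, 1437 and 909 in the heterozygous FK228 libraries. The lowest treated library was 9.10 times the highest solvent library in wild type and 10.6 times in heterozygous cultures. Log2 changes were 3.78 ± 0.20 (SE; 13.7-fold) and 4.27 ± 0.21 (19.3-fold). It was the least tight of the rising genes, with a coefficient of variation of 22.5% and 20.7% in the treated groups and 26.6% in the heterozygous solvent group, where libraries 2 and 4 lay above libraries 1 and 5. The heterozygous FK228 library 5 lay below the other 3 of its group.

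The other Nrip genes did not follow. Nrip1, a corepressor of nuclear receptors, fell 1.33-fold in wild type (edgeR adjusted p = 0.00424) and had a log2 change of -0.03 ± 0.11 (adjusted p = 0.826) in heterozygous cultures; scaled to the spike-ins the latter was -0.76 and passed the test. Nrip2 fell from 78.9 ± 13.1 (SD, n = 4) to 16.9 ± 7.60 normalized counts in wild type (log2 -2.24 ± 0.56, adjusted p = 0.00302). In heterozygous cultures Nrip2 held 254 ± 101 with solvent and 124 ± 78.7 with FK228 (log2 -1.02 ± 0.46, adjusted p = 0.0754; scaled to the spike-ins -1.68, which passed the test). Among the closest relatives tested (Eaf1, Nrip2, Reep5, Plpp4, Ubxn6 and Kdelc1), Nrip2 was the only one called between genotypes with FK228, higher in heterozygous cultures by 2.89 ± 0.56 on the log2 scale (adjusted p = 0.00869).

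Reep6 (ENSMUSG00000035504; chromosome 10, 80329953 to 80336441, plus strand) encodes a membrane protein of the REEP family, which curves ER membrane and is known for its role in rod photoreceptors. It held 198, 211, 184 and 153 normalized counts in the wild-type solvent libraries and 1029.8, 782, 932 and 1056 in the wild-type FK228 libraries. It held 111, 105, 134 and 93.1 in the heterozygous solvent libraries and 837, 978, 807 and 852 in the heterozygous FK228 libraries. The solvent groups stood apart by genotype, with all 4 heterozygous libraries below all 4 wild-type ones, whereas the FK228 groups overlapped. Log2 changes with FK228 were 2.33 ± 0.13 (SE; 5.05-fold) in wild type and 2.97 ± 0.13 (7.82-fold) in heterozygous cultures. The photoreceptor marker list summed to 0.324 to 1.29 CPM with solvent and 1.36 to 1.81 with FK228 in wild type. In heterozygous cultures the sums were 0.321 to 0.864 and 1.13 to 1.42, and all of these are near 0. Only 1 of the 6 listed markers was tested. It was called higher with FK228 in both genotypes, and with spike-in scaling in heterozygous cultures only.

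Of 15 tested ER-shaping genes listed with Reep6, 8 rose and 0 fell in each genotype, the same 8 genes, where 23.7% of all tested genes rose and 25.3% fell in wild type and 23.8% and 24.7% in heterozygous cultures. The median log2 change was 0.22 in wild type and 0.23 in heterozygous cultures. With spike-in scaling 4 rose and 0 fell in wild type, and 3 rose and 8 fell in heterozygous cultures, so the direction of the list there depended on the scaling. The neuron markers that rose in the same libraries, 3 of 8 in wild type and 5 of 8 in heterozygous cultures, are given above, and their part in these rises was not tested. Rtn2, a reticulon, rose 3.96-fold in wild type and 5.27-fold in heterozygous cultures (edgeR adjusted p = 1.96e-06 and 5.41e-07). Reep2 rose 2.73-fold and 3.39-fold, and Atl1, the ER-fusing GTPase atlastin, 1.86-fold and 2.27-fold. Reep1 rose 1.65-fold and 2.07-fold. With spike-in scaling Rtn2, Reep2 and Atl1 were still called higher in both genotypes and Reep1 in wild type only. Reep5, the closest relative listed for Reep6 and by far the more abundant transcript of the pair (3684 ± 369 normalized counts, SD, n = 4, in wild type with solvent), passed the test in neither genotype (log2 -0.11 and 0.06), but with spike-in scaling it was called lower in heterozygous cultures (-0.64).

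Tango2 (ENSMUSG00000013539; chromosome 16, 18300825 to 18348103, minus strand) encodes a protein named for transport and Golgi organization. It held 1051, 984, 948 and 983 normalized counts in the wild-type solvent libraries and 3721, 3223, 3744 and 3995 in the wild-type FK228 libraries. It held 984, 1032, 934 and 838 in the heterozygous solvent libraries and 3591, 3573, 3303 and 3576 in the heterozygous FK228 libraries. It was among the tightest of the 9 genes, with a coefficient of variation of 3.94% to 8.81% over the 4 groups. Its effects in the genotypes nearly coincided, with log2 changes of 1.88 ± 0.08 (SE; 3.67-fold) in wild type and 1.89 ± 0.08 (3.70-fold) in heterozygous cultures. Among 20 tested genes of ER to Golgi transport, 4 rose and 5 fell in wild type and 3 rose and 6 fell in heterozygous cultures, or 1 and 5, and 0 and 19, with spike-in scaling. The median log2 change was 0.02 and -0.0024. Sec23a, Sec24d and Sec31a, parts of the COPII coat that carries cargo out of the ER, fell 1.47-, 1.27- and 1.37-fold in wild type and 1.69-, 1.27- and 1.43-fold in heterozygous cultures. Sec22b, a SNARE of the same step, rose 1.41-fold and 1.29-fold, but with spike-in scaling was called lower in heterozygous cultures (log2 -0.35).

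Mdm1 (ENSMUSG00000020212; chromosome 10, 118141811 to 118168997, plus strand) encodes a microtubule-binding protein of centrioles that restrains their duplication. It held 445, 425, 465 and 482 normalized counts in the wild-type solvent libraries and 1216, 1051, 1379 and 1199.8 in the wild-type FK228 libraries. It held 418, 400.2, 355 and 396 in the heterozygous solvent libraries and 1193, 1302, 1309.6 and 1273 in the heterozygous FK228 libraries. Its rise was the smallest of the 5 genes that were higher, with log2 changes of 1.40 ± 0.08 (SE; 2.65-fold) and 1.69 ± 0.09 (3.23-fold), and the lowest treated library was 2.18 times the highest solvent library in wild type and 2.86 times in heterozygous cultures. Other centriole genes went both ways: of 16 tested, 5 rose and 4 fell in wild type and 4 rose and 4 fell in heterozygous cultures, or 1 and 4, and 0 and 13, with spike-in scaling. Cep135, a protein of the centriole core, fell 3.12-fold and 4.29-fold (edgeR adjusted p = 0.00190 and 0.000293). Cetn3, a centrin, fell 1.72-fold and 1.86-fold, and Pcnt, a scaffold of the surrounding matrix, 1.67-fold and 1.45-fold. Ccp110, a cap protein of centrioles, rose 1.73-fold and 1.41-fold, and passed the test only in wild type with spike-in scaling.

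Plpp5 (ENSMUSG00000031570; chromosome 8, 25720037 to 25724887, plus strand) encodes a phospholipid phosphatase and was lower with FK228. It held 809, 789, 823 and 865 normalized counts in the wild-type solvent libraries and 175, 234, 224 and 185 in the wild-type FK228 libraries. It held 702, 746, 802 and 694 in the heterozygous solvent libraries and 268, 212, 233 and 262 in the heterozygous FK228 libraries. The groups of each genotype did not overlap, and the treated libraries of the 2 genotypes did. Log2 changes were -2.02 ± 0.11 (SE; 4.05-fold lower) in wild type and -1.599 ± 0.11 (3.03-fold lower) in heterozygous cultures. Among 14 tested lipid phosphatases and their relatives, 6 rose and 5 fell in wild type and 5 rose and 5 fell in heterozygous cultures, or 1 and 5, and 1 and 8, with spike-in scaling. Plpp4, the closest relative, fell from 135 ± 42.1 (SD, n = 4) to 21.2 ± 13.4 normalized counts in wild type and from 94.7 ± 11.7 to 11.9 ± 3.92 in heterozygous cultures (6.43-fold and 7.98-fold; edgeR adjusted p = 1.16e-05 and 1.12e-05). Plpp3 fell 1.40-fold and 1.53-fold. Plppr2, of the neuronal branch of the family, rose 2.79-fold and 2.63-fold and was still called higher in both genotypes with spike-in scaling. Plppr3, of the same branch, rose 1.35-fold and 1.50-fold and passed the test in neither genotype with spike-in scaling.

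Ubxn8 (ENSMUSG00000052906; chromosome 8, 33619586 to 33641967, minus strand) encodes a UBX-domain protein that holds the ATPase Vcp at the ER membrane for the removal of misfolded proteins. It held 877, 835, 813 and 793 normalized counts in the wild-type solvent libraries and 269, 262, 242 and 252 in the wild-type FK228 libraries. It held 839.8, 813, 865 and 871 in the heterozygous solvent libraries and 295, 226, 306 and 278 in the heterozygous FK228 libraries. Solvent libraries of both genotypes lay in 1 narrow band, and all treated libraries lay far under it. Log2 changes were -1.71 ± 0.09 (SE; 3.26-fold lower) and -1.62 ± 0.09 (3.07-fold lower). Listed with Ubxn8 were 24 tested genes, of ER degradation or of the UBX family. Of these, 5 rose and 7 fell in wild type and 3 rose and 10 fell in heterozygous cultures. With spike-in scaling the counts were 1 and 7, and 0 and 18. Over all tested genes 25.3% fell in wild type and 24.7% in heterozygous cultures, and the difference of the list's counts between genotypes was not tested. Vcp fell 1.50-fold in wild type and 1.53-fold in heterozygous cultures (edgeR adjusted p = 7.46e-07 and 3.74e-07). Ubxn6, the closest listed relative and another Vcp adaptor, fell 1.69-fold and 1.47-fold. Derl2 and Selenos, membrane proteins of the retrotranslocation site, fell 1.21-fold and 1.20-fold in wild type and 1.43-fold and 1.44-fold in heterozygous cultures.

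Csad (ENSMUSG00000023044; chromosome 15, 102176999 to 102204724, minus strand) encodes cysteine sulfinic acid decarboxylase, which makes the precursor of taurine. It held 1135, 1066, 1206 and 1219.6 normalized counts in the wild-type solvent libraries and 367, 448, 396 and 358 in the wild-type FK228 libraries. It held 1348, 1358, 1174 and 1231 in the heterozygous solvent libraries and 354, 392, 373 and 383 in the heterozygous FK228 libraries. The lowest solvent library was 2.38 times the highest treated one in wild type and 2.998 times in heterozygous cultures. Log2 changes were -1.57 ± 0.08 (SE; 2.97-fold lower) and -1.77 ± 0.08 (3.41-fold lower). Of 10 taurine and cysteine genes listed, 8 were tested, of which 1 rose and 3 fell in wild type and 2 rose and 3 fell in heterozygous cultures, or 1 and 3, and 1 and 6, with spike-in scaling. Cdo1, which supplies the substrate of Csad, fell 1.24-fold and 1.26-fold (edgeR adjusted p = 0.0205 and 0.0151). Ado, which makes the same product from cysteamine, passed the test in heterozygous cultures, where it fell 1.19-fold. Fmo1, which oxidizes hypotaurine to taurine, fell 4.94-fold and 3.51-fold. Cbs, the first enzyme from homocysteine towards cysteine, rose 4.69-fold and 5.79-fold and was still called higher in both genotypes with spike-in scaling. Gadl1, the closest relative, held 0 to 10 reads per library and was not tested.

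Kdelc2 (ENSMUSG00000034487; chromosome 9, 53384025 to 53401867, plus strand) encodes an ER glucosyltransferase of EGF-like repeats, such as those of Notch receptors. It held 588, 594, 529 and 571 normalized counts in the wild-type solvent libraries and 76.7, 136, 109.6 and 91.3 in the wild-type FK228 libraries. It held 525, 563, 532 and 521 in the heterozygous solvent libraries and 129, 104, 119 and 124 in the heterozygous FK228 libraries. It had the deepest fall of the 9 genes, with log2 changes of -2.48 ± 0.14 (SE; 5.57-fold lower) and -2.17 ± 0.14 (4.51-fold lower). The wild-type FK228 group was its most scattered, with a coefficient of variation of 24.7%, and library 2 was its highest. Listed with Kdelc2 were 15 tested genes, Notch receptors and glycosyltransferases. Of these, 4 rose and 5 fell in wild type and 3 rose and 6 fell in heterozygous cultures. With spike-in scaling the counts were 2 and 6, and 0 and 13. Kdelc1, its closest relative, had a log2 change of -0.08 ± 0.08 (edgeR adjusted p = 0.474) in wild type and fell 1.22-fold in heterozygous cultures (adjusted p = 0.00860). Pofut2, a fucosyltransferase, fell 1.34-fold and 1.20-fold. Gxylt1 and Xxylt1, xylosyltransferases that extend O-glucose, rose 2.12-fold and 1.63-fold in wild type and 1.39-fold and 1.71-fold in heterozygous cultures, where neither was called with spike-in scaling. Notch2 rose 1.25-fold and 1.14-fold, but with spike-in scaling was called lower in heterozygous cultures (log2 -0.53).

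**Figure D2:**
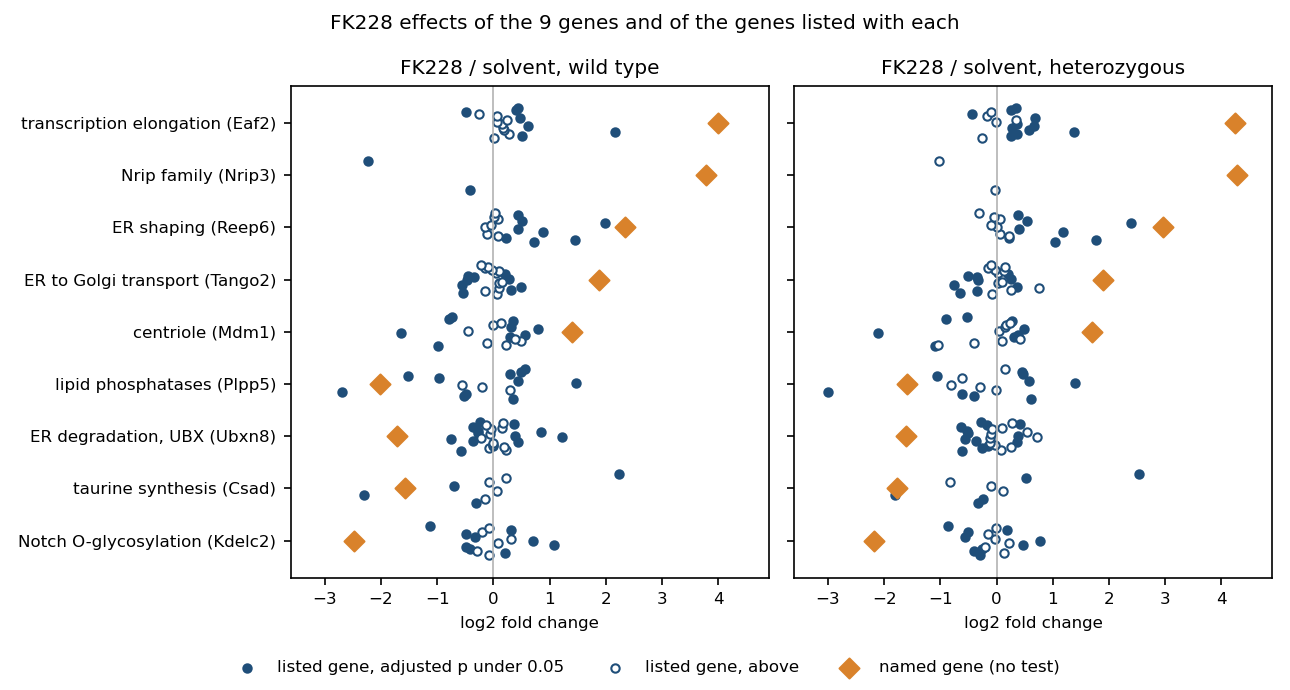
Log2 fold changes of FK228 against solvent in wild-type (left) and heterozygous cultures (right) for the genes listed with each of the 9 genes (circles, filled where the edgeR adjusted p is under 0.05) and for the 9 genes (diamonds, not tested). The diamonds lie between -2.48 and 4.27, and the circle farthest to the left in wild type is Plpp4 at -2.68.

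Set side by side, the 9 genes covered a wide span of starting levels. Compared per kilobase of exon in wild type with solvent, Csad was highest at 302 ± 18.5 (SD, n = 4) normalized counts per kb, then Ubxn8 at 283 ± 12.4, and these neighbours in the order overlapped. Then came Plpp5 at 233 ± 9.08, Kdelc2 at 157 ± 8.09, Tango2 at 125 ± 5.46, Mdm1 at 110.4 ± 6.07, Reep6 at 74.4 ± 9.99, Nrip3 at 27.4 ± 2.00 and Eaf2 at 3.51 ± 0.362, each apart from the next in every library. In the solvent groups the 4 genes that were lower with FK228 thus lay above the 5 that were higher. With FK228 the order turned over: in wild type Tango2 (464 ± 40.9), Nrip3 (380.3 ± 85.6), Reep6 (379 ± 49.5) and Mdm1 (294 ± 32.6) led, all overlapping their neighbour in that order, and Kdelc2 came last at 28.4 ± 7.01. In heterozygous cultures Tango2 (444 ± 17.5) stood above the overlapping Reep6 (347 ± 30.1), Nrip3 (326 ± 67.4) and Mdm1 (308 ± 12.9). Eaf2 reached 57.2 ± 7.98 in wild type and 59.7 ± 10.3 in heterozygous cultures per kb, overlapping Plpp5 in both.

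For all 9 genes the solvent and FK228 libraries did not overlap in either genotype. That property was part of the choice, and 44.8% of all tested genes had it in wild type and 42.8% in heterozygous cultures. By size of the log2 change the genes were not the extremes of the data. Among 17125 genes ranked from the largest rise, Eaf2 was number 44 in wild type and 50 in heterozygous cultures, Nrip3 53 and 48, Reep6 214 and 166, Tango2 394 and 466, and Mdm1 753 and 605. Ranked from the largest fall, Kdelc2 was 165 and 271, Plpp5 308 and 625, Ubxn8 502 and 612, and Csad 629 and 464. With spike-in scaling all 9 kept their direction in both genotypes. In heterozygous cultures it lowered the rises to 3.55 for Eaf2, 3.59 for Nrip3, 2.27 for Reep6, 1.17 for Tango2 and 0.96 for Mdm1 on the log2 scale and deepened the falls to -2.31 for Plpp5, -2.34 for Ubxn8, -2.50 for Csad and -2.89 for Kdelc2.

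**Figure D3:**
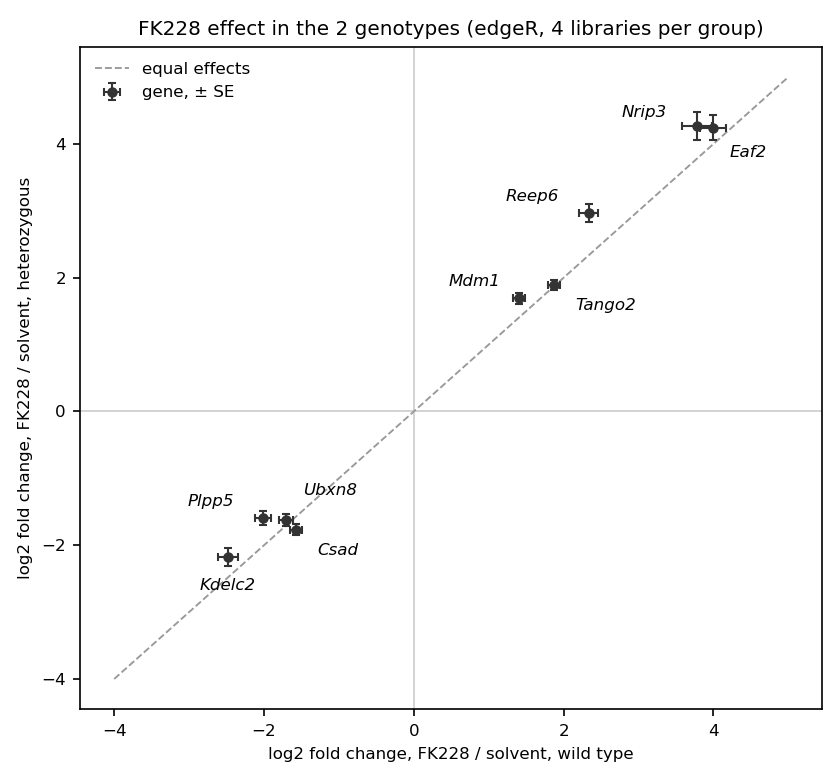
Log2 fold change of FK228 against solvent in wild-type (x axis) and heterozygous cultures (y axis) for the 9 genes, with SE bars and a dashed line of equal effects. Tango2 lies on the line at 1.88 and 1.89, and Reep6 lies above it at 2.33 and 2.97.

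The difference between genotypes set cultures heterozygous for loss of exon 4 of Rest against wild-type cultures. With solvent, 1 of the 9 genes passed the test, where 2.03% of all tested genes were called. Reep6 fell from 186 ± 25.0 (SD, n = 4) normalized counts in wild type to 111 ± 17.3 in heterozygous cultures, a log2 difference of -0.76 ± 0.13 (SE; 1.69-fold lower; edgeR adjusted p = 0.00371), lower in 4 of 4 libraries. Over 26 alternative settings the adjusted p of Reep6 ran from 3.64e-05 to 0.0450 and the log2 difference from -0.94 to -0.67. Nrip3 also had solvent groups that did not overlap, 109.8 ± 8.01 in wild type and 67.4 ± 17.9 in heterozygous cultures. Its log2 difference of -0.71 ± 0.22 did not pass the test (adjusted p = 0.132), and did so with DESeq2 (adjusted p = 0.0304), without the filter (0.0409) and with spike-in scaling (0.0301), in a range of 0.0301 to 0.334. Mdm1 was the other gene without overlap, at 454 ± 25.0 and 392 ± 26.5 (log2 -0.22 ± 0.09, adjusted p = 0.290). Groups that did not overlap were found for 6.23% of all tested genes in this comparison. Little spread between libraries was part of the choice, so the 9 genes and all tested genes are not alike in this respect.

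Other values differed between the solvent groups as well. Of 8 neuron markers, 6 were lower in heterozygous cultures (sum 247 to 418 CPM in wild type and 96.7 to 158 in heterozygous). So were 2 of 8 hair cell markers (358 to 443 CPM and 260.1 to 361). Reep1 was the only gene of the ER-shaping list called, at a log2 difference of -0.52 ± 0.10 (edgeR adjusted p = 0.00976). Y-linked genes summed to 155 ± 58.1 CPM (SD, n = 4) in wild type and 242 ± 86.8 in heterozygous cultures, so the pools differed in their mix of sexes. With the Y-linked sum as a covariate the log2 difference of Reep6 was -0.80 (adjusted p = 0.00354), and without the 2 solvent libraries that had the fewest reads outside genes it was -0.83 (adjusted p = 0.00687). The part of the neuron and hair cell markers in the Reep6 difference was not tested.

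With FK228, 0 of the 9 genes passed the edgeR test between genotypes, where 2.14% of all genes did. One of them, Plpp5, had an unadjusted p under 0.05, and DESeq2 also called 0. Plpp5 held 204 ± 28.6 (SD, n = 4) normalized counts in wild type and 244 ± 26.2 in heterozygous cultures (log2 0.26 ± 0.11, adjusted p = 0.305). Reep6, the gene called with solvent, held 950.0 ± 124 and 869 ± 75.4, a log2 difference of -0.12 ± 0.12 (adjusted p = 0.747). All 9 pairs of groups overlapped, as did all but 8.72% of tested genes. Of the markers, 3 of 8 for neurons and 2 of 8 for hair cells were still called lower in heterozygous cultures with FK228. Scaling to the spike-ins shifted all genes by a median of -0.74 in this comparison, and all 9 genes were then called lower in heterozygous cultures, as were 12761 of 17125 genes. Against that shift the log2 differences of the 9 genes ran from -0.93 for Nrip3 to -0.49 for Plpp5.

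The difference of the FK228 effects between genotypes is made from the same values that chose the genes, with the effects of both genotypes in view, and genes with a like response in both were favoured. It is therefore described without a test. Over all tested genes 0.0234% were called in this comparison by edgeR, a share from which nothing is read for the 9 genes. The FK228 effect of Reep6 was larger in heterozygous cultures by 0.63 ± 0.18 (SE) on the log2 scale. Nrip3 had a difference of 0.49 ± 0.28, Plpp5 one of 0.42 ± 0.15, that is, a shallower fall in heterozygous cultures, Kdelc2 0.30 ± 0.19, Mdm1 0.29 ± 0.12 and Eaf2 0.24 ± 0.26. Ubxn8 had 0.09 ± 0.12 and Tango2 0.01 ± 0.11, the nearest to 0, and Csad was the only gene with a negative difference, -0.20 ± 0.12. With spike-in scaling the median over all genes in this comparison stood at -0.56, and the differences of the 9 genes ran from -0.78 for Csad to 0.09 for Reep6, the only one that was then above 0.

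**Figure D4:**
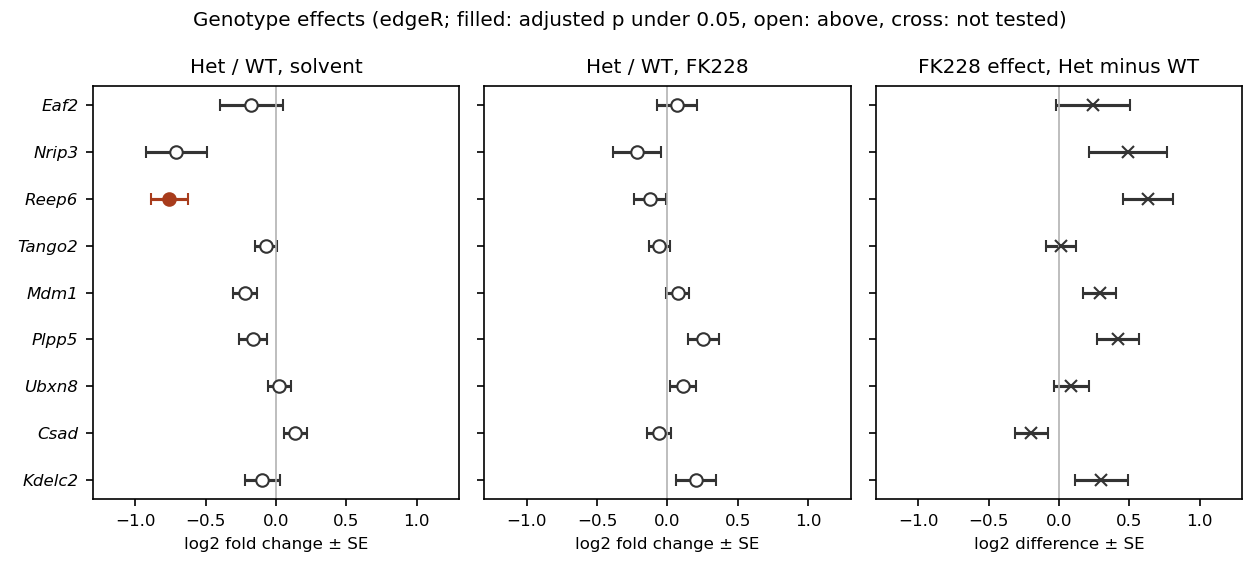
Log2 differences between genotypes with solvent (left) and with FK228 (middle), and the difference of the FK228 effects, heterozygous minus wild type (right, crosses, not tested), with SE bars; filled points have an edgeR adjusted p under 0.05 and open points one above. Reep6 with solvent, at -0.76, is the only filled point.

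Neighbouring genes were read in the same fit. Golgb1, a Golgi matrix protein whose start lies 136 bases from that of Eaf2 on the other strand, had log2 changes of 0.08 ± 0.05 in wild type (edgeR adjusted p = 0.234) and 0.14 ± 0.05 in heterozygous cultures (adjusted p = 0.0382), the latter -0.58 with spike-in scaling. Arvcf, a catenin that starts 78 bases from Tango2, passed the test in neither genotype (0.38 ± 0.17 and 0.28 ± 0.17). Dgcr8, a microRNA processing factor on the other side of Tango2, fell 1.34-fold in wild type (adjusted p = 0.0101) and had a log2 change of -0.28 ± 0.13 (adjusted p = 0.0802) in heterozygous cultures, where spike-in scaling called it lower (-1.02). Pcsk4, a proprotein convertase that starts 454 bases from Reep6, rose 1.595-fold and 2.19-fold and passed in neither genotype with spike-in scaling. Adamtsl5, on the other side of Reep6, rose 3.18-fold and 5.72-fold. Nsd3, a histone methyltransferase that ends 369 bases before Plpp5, rose 1.58-fold and 1.35-fold while Plpp5 fell, though in heterozygous cultures it was no longer called with spike-in scaling. Ddhd2, a phospholipase on the other side of Plpp5, rose 1.304-fold in wild type (adjusted p = 0.00114) and had a log2 change of 0.14 ± 0.09 (adjusted p = 0.175) in heterozygous cultures; with spike-in scaling it was not called in wild type and was called lower in heterozygous cultures (-0.57). Slc15a2, a peptide transporter downstream of Eaf2, fell 2.16-fold and 2.45-fold while Eaf2 rose.

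Beside Csad, Itgb7, an integrin chain, rose 3.86-fold and 11.8-fold from low counts. Zfp740, which overlaps Csad by 1476 bases on the other strand, fell 1.14-fold and 1.18-fold. With spike-in scaling Zfp740 was called lower in heterozygous cultures only. Igfbp6, on the other side of Csad, passed in neither genotype (0.12 ± 0.28 and -0.05 ± 0.29), and was called lower in heterozygous cultures with spike-in scaling (-0.77). Gsr, glutathione reductase, which lies near Ubxn8, fell 1.42-fold and 1.31-fold. Ppp2cb, a phosphatase subunit that ends 144 bases from the end of Ubxn8, fell 1.28-fold in wild type. In heterozygous cultures it had a log2 change of -0.15 ± 0.13 (edgeR adjusted p = 0.352), and spike-in scaling called it lower there (-0.85). Iqcb1, inside whose span Eaf2 lies in part, passed in neither genotype (-0.0038 ± 0.095 and 0.08 ± 0.10), and was called lower in heterozygous cultures with spike-in scaling (-0.63). The nearest tested genes of Nrip3, Mdm1 and Kdelc2 on both sides passed in neither genotype. Those of Mdm1, Rap1b and Dyrk2, lie as far as 295775 and 686605 bases away. With spike-in scaling Scube2, beside Nrip3, and Rap1b were called lower in heterozygous cultures (-1.15 and -0.83).

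Over the 16 libraries the 9 genes followed the treatment closely. Outside the 9, genes at a Pearson correlation of at least 0.95 of log2 CPM numbered 328 for Reep6 to 534 for Eaf2. All of these points share the split into treated and untreated libraries, so the values describe that split and carry no p. Some of the 9 were closer to each other than to any other gene, as Eaf2 to Tango2 (0.996) and Plpp5 to Kdelc2 (0.996). The genes named next are the closest outside the 9, by positive correlation. For Eaf2 these were the zinc transporter Slc30a3 (0.995) and Ethe1 (0.994). Slc30a3 was also closest to Tango2 (0.995), followed by Rita1 (0.993). The closest to Nrip3 were Dap3 (0.991) and 5330417C22Rik (0.987), to Reep6 Fbxo36 (0.990) and Aldh4a1 (0.988), and to Mdm1 Atp2b4 (0.989) and Slc30a3 (0.989). Among the genes that were lower, Plpp5 was closest to the mesenchyme factor Prrx1 (0.992) and to Ltbr (0.989), and Ubxn8 to Larp7 (0.993) and Chrac1 (0.991). Csad was closest to Wnt5a (0.992) and Ufc1 (0.991), and Kdelc2 to Ufc1 (0.994) and Gpx7 (0.992). Prrx1 is 1 of the mesenchyme markers that fell with FK228, by -2.50 in wild type and -2.31 in heterozygous cultures on the log2 scale.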

How the data were processed

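Libraries were made from oligo dT-primed, template-switched and tagmented cDNA, per the labels' protocols. For each library the authors deposited read counts per gene from STAR 2.5.2a with the genome GRCm38.p4, per the submitters' processing notes. A further table deposited by the authors gives normalized signal (DESeq2, per the same notes) for 21220 genes. Multiplying it by 1 size factor for each library, between 0.801 and 1.41, returned the counts. Unstranded counts were taken because both strand columns held about the same share (49.8% to 49.9%). Spike-in and summary rows stayed out, and 2.99% to 3.46% of reads were ambiguous.

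Levels are normalized counts, and fold changes come from counts in R 4.3.3 with edgeR 4.0.16: filterByExpr (minimum count 10, minimum total 15), TMM factors, a quasi-likelihood model with 1 mean per group over all 16 libraries, and Benjamini-Hochberg adjustment over 17125 genes, called under 0.05. The script was tested on simulated data. Positions, exon lengths and neighbours came from GENCODE M21 and promoters from RefSeq GRCm38.p6. Figures were drawn with matplotlib 3.10.9.

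The members and gene lists were chosen with earlier results of these data known. Genes named are the 9, their closest listed relatives and up to 4 genes per list with the smallest p of FK228 in either genotype. Also named are the 2 genes outside the 9 most positively correlated with each (log2 CPM, prior count 2), and overlapping or nearest tested neighbours. Ell3, Reep1 between genotypes, Nrip2 between genotypes and Prrx1 as a marker were singled out after their values were seen. Alternatives were DESeq2 1.42.0, RLE factors, ERCC scaling, no filter, a stricter filter (50 counts in 4 libraries), only the groups compared, the replicate block, reads recovered from the normalized table, TMM-scaled CPM as levels and each library left out. Leaving out the 2 libraries with the fewest reads outside genes, and a Y-linked covariate, were added after seeing the data.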

Additional observations from a re-analysis of the deposited data

Results flagged for a closer look

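In 2 of the 36 groups of 4 libraries (9 genes in 4 groups) 1 library stood away from the other 3, and chance alone marks about 1 in 20 groups. For Eaf2 in heterozygous cultures with solvent, library 4 was lowest at 11.6 normalized counts against 14.1 to 14.6. The gap was 0.839 of the group's whole range, past Dixon's limit for 4 samples, and the value rests on 11 reads. For Tango2 in heterozygous cultures with FK228, library 4 was lowest at 3303 against 3573 to 3591, a gap of 0.939 of the range.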

How the results depend on the processing

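Each of the 9 genes kept its FK228 direction under all 26 alternative settings in both genotypes. Of 468 genotype values recomputed, 456 kept their call. All the others but the DESeq2 and no-filter calls of Nrip3 came from spike-in scaling, which called 9 of the 9 genes between genotypes with FK228 and 2 with solvent; DESeq2 and no filter each called 2 with solvent. It turned the genotype difference with FK228 to -0.63 for Eaf2, -0.66 for Mdm1, -0.49 for Plpp5, -0.62 for Ubxn8 and -0.55 for Kdelc2; the cause of the shift was not tested. Genes called between genotypes with solvent, 347 of 17125, became 550 with DESeq2 and 211 with the replicate block, and 239 to 381 with 1 library left out. With FK228, 366 became 638 with DESeq2, 12857 with spike-in scaling, 107 with the replicate block and 189 to 438 with 1 library left out. For the difference of the FK228 effects, 4 became 29 with DESeq2, 4069 with spike-in scaling, 10 without the filter, 0 with the replicate block (797 at an unadjusted p under 0.05), 2 without the 2 libraries that had the fewest reads outside genes, and 2 to 6 with 1 library left out. With 1 library left out, 1 of the 9 genes stayed called with solvent and 0 with FK228. The differences of the FK228 effects moved by more than 1 SE only with spike-in scaling, for all 9 genes. The replicate numbers did not pair the libraries: deviations of libraries with the same number correlated at -0.28 to 0.31, and with the replicate block Reep6 with solvent had a log2 difference of -0.70 (adjusted p = 0.0394). Depth limits Eaf2 with solvent, at 11 to 24 reads per library.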
